A study of Danio rerio with 18 samples.

Results

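The transcripts described here are those whose level in whole zebrafish (Danio rerio) embryos was raised by all-trans retinoic acid (atRA) at 24 hours post fertilisation (24 hpf), while atRA and control embryos lay close together at 80% epiboly and at 12 somites. They were chosen from the values themselves. Levels are in CPM, the counts of a transcript per 1000000 counts of its library, and d is the log2 ratio of the mean CPM with atRA to the mean CPM in controls at a stage, after 0.5 CPM was added to each mean. A transcript was a member when d was at least 1 at 24 hpf, when every atRA library lay above every control library at that stage, and when d stayed within 0.5 of 0 at both earlier stages. The rule was met by 84 of 58549 transcript IDs, or 0.143%, which is below the limit of 200 that the rule allowed.

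All embryos were wild-type. The groups were atRA and control embryos at 80% epiboly (late gastrulation, when the cell sheet has spread over most of the yolk), at 12 somites (early in body segmentation) and at 24 hpf. The atRA groups received 0.1 µM atRA and the controls DMSO, its solvent, from 30% epiboly for the embryos of 80% epiboly and from 80% epiboly for both later stages. There were 18 libraries, 3 in each of 6 groups, and the labels do not say whether replicates came from separate clutches, so p-values measure only the spread between these libraries, which may be technical. No batch is given in the labels.

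Retinoic acid is made from vitamin A and acts through nuclear retinoic acid receptors, which bind DNA as partners of retinoid X receptors and switch the transcription of target genes. In the vertebrate embryo it patterns the hindbrain and trunk along the head-to-tail axis and takes part in the formation of heart, limb or fin and endodermal organs, and it is cleared by enzymes of the Cyp26 family. In whole-embryo RNA, more cells of a type and more RNA per cell cannot be told apart.

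The files name transcripts by Ensembl IDs only, and 0 of the 58549 IDs were found in the gene tables used here. No gene name, function, sequence or position is therefore given, and the retinoic acid and hox gene lists could not be applied. The results below describe the 84 transcripts by level, timing and spread, with 4 of them by ID. CPM is not corrected for transcript length, so levels are compared between groups and not between transcripts.

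Libraries held 38673189 to 50505506 counts with atRA and 68391282 to 72734557 in controls at 24 hpf, and 77807705 to 115511468 at the earlier stages. Depth thus separated the groups at 24 hpf, and its part in the results was not tested. The 24 hpf libraries also varied more among themselves, and edgeR's shared estimate of variation between replicates, on the scale of a coefficient of variation, came to 0.0774 for 80% epiboly, 0.049 for 12 somites and 0.202 for 24 hpf. Fitted with the 12 somites libraries of the same treatment, it was 0.177 for the 24 hpf controls and 0.0952 for the 24 hpf atRA libraries.

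At 24 hpf the members had a median d of 1.2, from 1.01 to 2.08. The values crowded at the low end. Under 1.2 lay 42 of them, at least 1.5 was reached by 20 and at least 2 by 2. In atRA embryos the mean level of a member ran from 1.19 to 677 CPM with a median of 4.67 CPM, and in control embryos from 0.0512 to 326 CPM with a median of 1.34 CPM. All of these values entered the rule and are given as a description. For 80 members with a mean of at least 10 counts in the 24 hpf controls, the ratio of mean CPM with atRA to mean CPM in controls ran from 2.05 to 9.51, with a median of 2.83. It was at least 3 in 33 of them and at least 4 in 14.

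The other 4 members were nearly absent from 24 hpf controls. Of these, 2 had identical counts in all 18 libraries, and a further ID had nearly the same counts as they had at 24 hpf. The 24 hpf atRA libraries of the 4 held 55 to 82 counts and their control libraries 1 to 9 counts, and d ran from 1.71 to 1.86. Such low control counts fix the size of the ratio poorly.

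The separation of the libraries at 24 hpf differed widely among the members. The gap between the lowest atRA and the highest control library, on the log2(CPM + 0.5) scale, had a median of 0.857 and ran from 0.233 to 1.87. It was at least 1 in 27 members and at least 0.5 in 74. Control replicate 2 was the highest control library for 41 of the 84 and atRA replicate 3 the lowest atRA library for 42. The coefficient of variation over the 3 libraries of a group had a median of 13.2% with atRA and 16.9% in controls among all 84 members. Over all transcripts with a group mean of at least 1 CPM it was 10.9% and 15.8%. Every member met that limit of 1 CPM with atRA. In controls the lower quartile of the member means was 0.68 CPM, and 13 members lay even under 0.5 CPM. More than these 13 thus missed the limit, and the control medians cover unlike levels.

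Library by library, the members together took 1903, 1726 and 1916 CPM in the atRA libraries of 24 hpf, against 842, 917 and 667 CPM in the controls. One transcript carried much of this. Without it the sums were 1211, 1148 and 1154 CPM with atRA, against 499, 508 and 442 CPM in controls. The median level over the members was 4.56, 4.55 and 4.63 CPM in the atRA libraries and 1.48, 1.59 and 1.62 CPM in the control libraries. This median was alike in the 3 libraries of each group. It does not measure the spread of single members between libraries.

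edgeR's quasi-likelihood test, fitted to all 41404 transcripts that passed the filter on low counts, called 83 of the 84 higher with atRA at 24 hpf at an adjusted p under 0.05. Over all transcripts tested, 4.09% were called higher, and 11.8% of the 42160 IDs with at least 180 counts had every atRA library above every control. The members were chosen on this comparison, so the count describes them and is no separate evidence. The count moved when single libraries were left out, and the cause was not tested. It was 42 without atRA replicate 1 and 39 without control replicate 1. Without replicates 2 and 3 in turn it was 65 and 61 for atRA, and 84 and 82 for controls. All 84 members kept an unadjusted edgeR p under 0.05 in each of these fits. The libraries left in had also chosen the members, so this too is a description and no separate evidence. With the replicate number added as a block the count was 4, but the labels give no pairing. The member that was not called with all libraries and no block was the one with the highest CPM, described below.

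**Figure D1:**
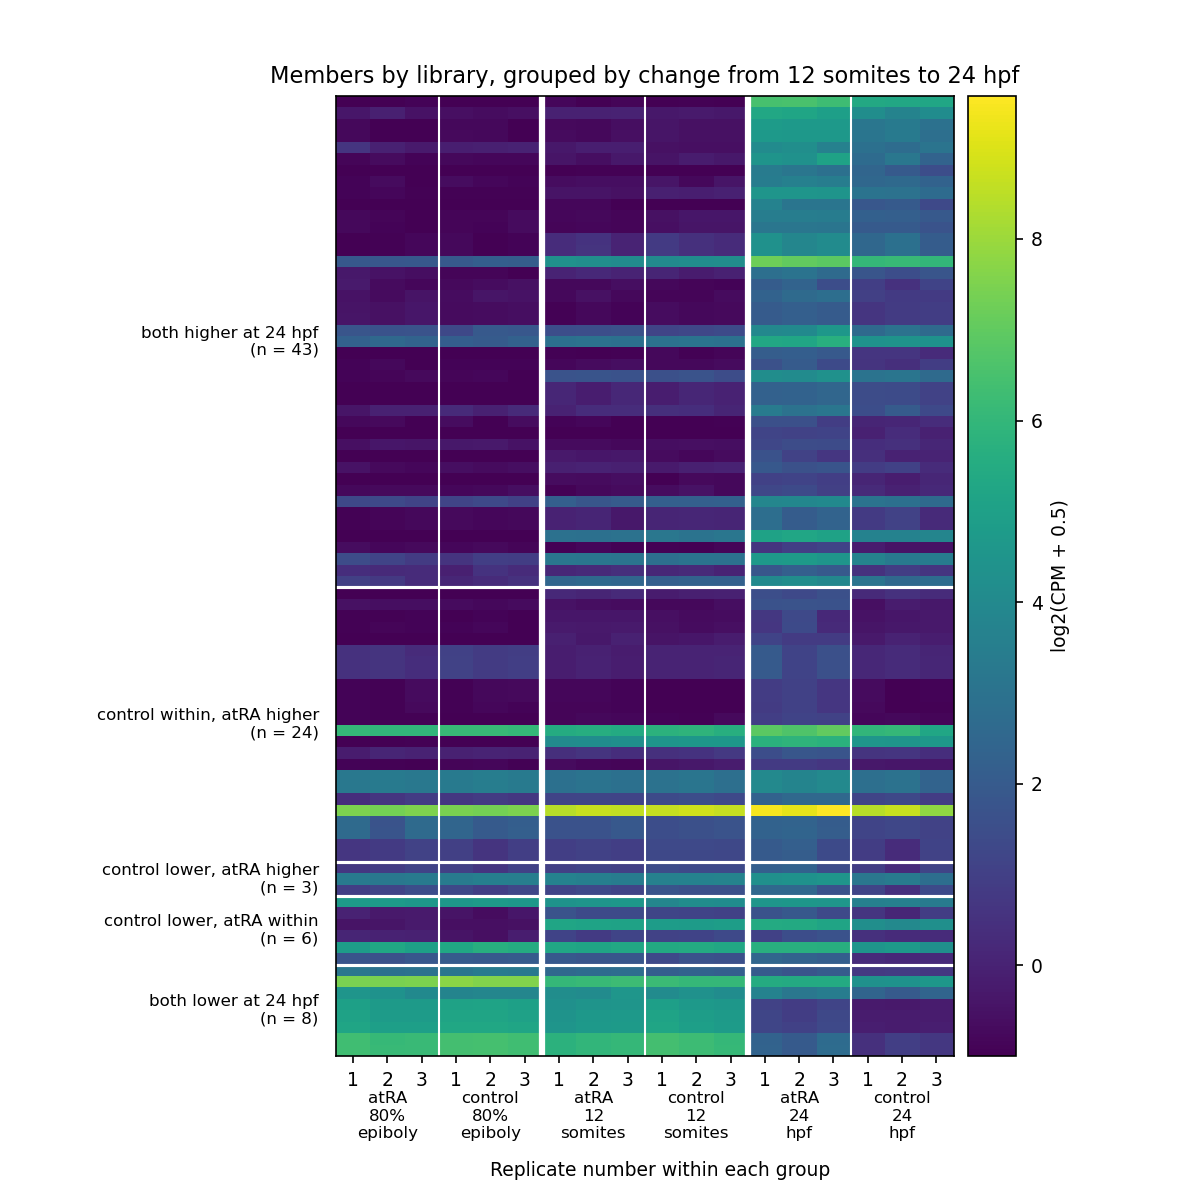
Level of the 84 members (rows) in the 18 libraries (columns, replicates 1 to 3 of each group) as log2(CPM + 0.5), with colours from dark (low) to yellow (high). Rows are grouped by whether the group mean at 24 hpf was higher, within 0.5 or lower than at 12 somites in control and in atRA embryos, and 43 of the 84 rows belong to the class that was higher in both.

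The members were mostly at their highest in 24 hpf atRA embryos, while in controls their courses were mixed. The highest of the 6 group means was that of 24 hpf atRA embryos for 73 of the 84, and that of 80% epiboly for the other 11. In 69 members every 24 hpf atRA library lay above every other library of the series, against 4.42% of all 42160 IDs with at least 180 counts. This follows in part from the rule. In 37 members, or 44%, the control mean was under 0.5 CPM at both earlier stages, against 16.7% of those 42160 IDs. The pseudocount in the rule makes the limits at the earlier stages easy to meet at such low levels.

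These 37 members are termed low-early below, for their control level before 24 hpf only. The 4 members nearly absent from 24 hpf controls are among them. The 24 hpf level of the 37 had a median of 2.93 CPM with atRA and 1.08 CPM in controls. At 12 somites the medians were 0.115 CPM with atRA and 0.11 CPM in controls, and at 80% epiboly they were 0.0484 CPM with atRA and 0.0615 CPM in controls. In 34 of the 37 every 24 hpf control library lay above every 12 somites control library, against 34% of the 42160 IDs. edgeR called 31 of the 37 higher in controls over this step and 0 lower, and 4 did not pass the filter. Over all 43030 transcripts tested, 32.3% were called higher. The 37 were split off by low control levels at 12 somites, which leave little room for a fall. The transcripts they are set beside were not. On the log2(mean CPM + 0.5) scale 10 of the 37 stayed within 0.5 in controls. For 4 members no count was seen in any of the 6 libraries of 80% epiboly, and 2 of these had identical counts in all libraries. A count of 0 in a single library allows up to 0.026 to 0.0373 CPM, depending on the library, by counting error alone. Counts of 0 in all 6 together allow less.

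The change from 12 somites to 24 hpf sorted the members by what happened in each group. Taking a difference of 0.5 on the log2(mean CPM + 0.5) scale as the limit, 43 members were higher at 24 hpf in both groups, with a median change of 2.71 in atRA embryos and 1.43 in controls. A further 24 stayed within the limit in controls and were higher in atRA embryos, where the median change was 1.31. In 3 members the level was higher at 24 hpf with atRA and lower in controls. In 6 it stayed within the limit with atRA and was lower in controls, and in 8 it was lower in both groups, less so with atRA. The classes use the 24 hpf libraries that chose the members, so their difference between groups is fixed by the rule. The direction of each group's change is not fixed at higher 12 somites levels. At levels near 0 CPM there, such as the low-early medians of 0.115 CPM with atRA and 0.11 CPM in controls, it partly is. The rule and the 0.5 CPM added then force a rise beyond the limit with atRA and leave no room for such a fall in controls.

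**Figure D2:**
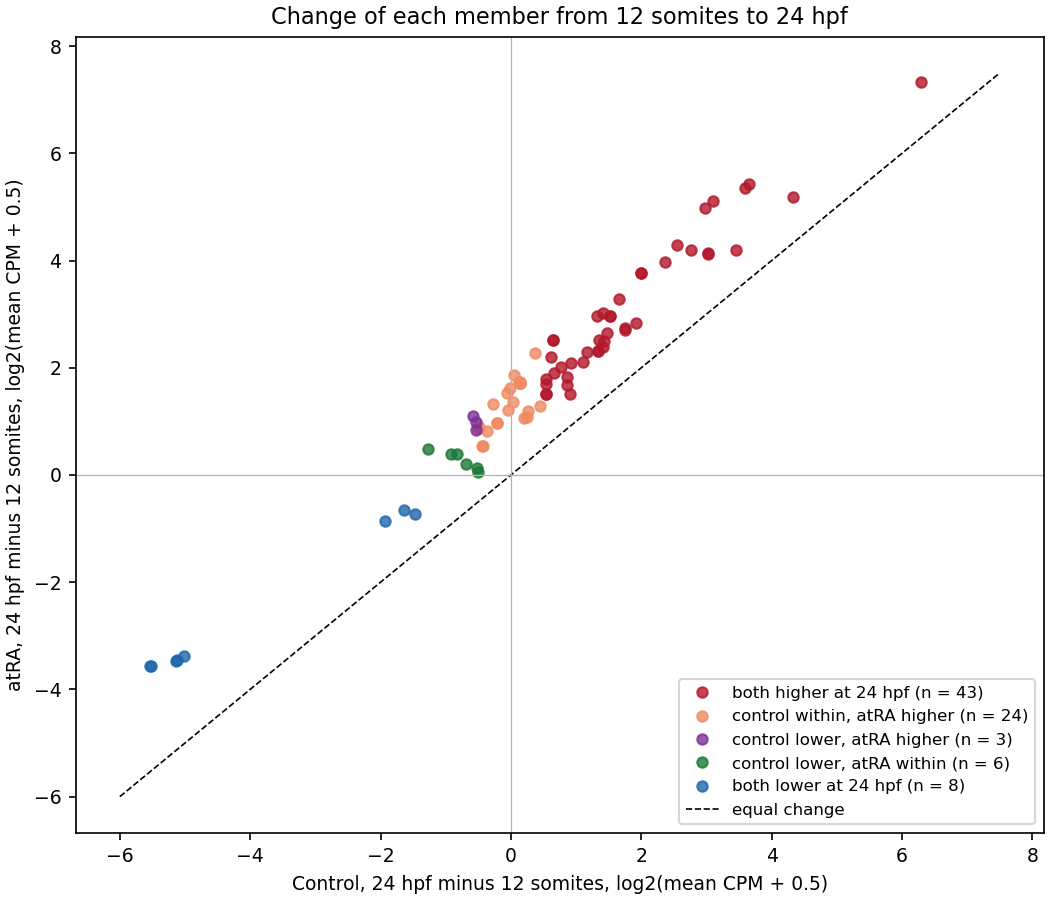
Change of each of the 84 members from 12 somites to 24 hpf, on the log2(mean CPM + 0.5) scale, in controls (horizontal) and in atRA embryos (vertical), coloured by class, with a dashed line of equal change. All points lie above the line, as the rule requires, and they run from the 8 members lower in both groups, at the lower left, to the 43 higher in both.

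The fits across all transcripts gave a like picture. In controls, 47 members were called higher at 24 hpf than at 12 somites and 21 lower, 12 were not called and 4 did not pass the filter (edgeR, adjusted p under 0.05). Over all 43030 transcripts tested, 32.3% were called higher and 26.7% lower. The 21 became 13 without 12 somites control replicate 1, 12 without replicate 2 or replicate 3 of that group, and 12 without 24 hpf control replicate 1. A called fall of a log2 of 1 or more was found for 10 of the 80 members tested, beside 10% of all transcripts tested. In atRA embryos 74 of 84 members tested were called higher at 24 hpf and 8 lower, against 36.4% and 34.4% of all 41327. A called fall of a log2 of 1 or more was found for 5 of these 84, beside 10.2% of all transcripts tested. Without overlap, 72 members were higher at 24 hpf than at 12 somites in atRA embryos and 8 lower, against 33.6% and 40.1% of the 42160 IDs. In controls 53 were higher and 22 lower, against 34% and 32.9%. Taking both fits, 47 members were called higher in both groups, 11 were called higher with atRA and lower in controls, and 8 were called lower in both. Of all 40964 transcripts tested in both fits, 26.7%, 0.652% and 21.8% had these patterns, in that order. The 24 hpf libraries entered the rule, so these counts too are a description.

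The 8 members that were lower at 24 hpf in both groups all had their highest group mean at 80% epiboly, in atRA or control embryos. A member of the 8 was an exception among controls, with 13.8 CPM at 80% epiboly and 17.9 CPM at 12 somites. Of these 8 members, 5 had all but vanished from controls by 24 hpf. Their group means were 1.56 to 4.75 CPM in 24 hpf atRA embryos and 0.346 to 1.15 CPM in 24 hpf controls. The 12 somites means were 21 to 61.2 CPM in atRA embryos and 26.8 to 76 CPM in control embryos. The level left at 24 hpf was thus 7.2 to 7.76% of that at 12 somites in atRA embryos, and 1.25 to 1.52% in controls. In the other 3, 54.2 to 63.2% was left with atRA and 24.2 to 31.6% in controls. The 5 are not 5 separate observations: their counts kept nearly constant ratios over the libraries and formed 2 sets.

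ENSDART00000024866.9 belongs to these 5. On the log2(mean CPM + 0.5) scale it had the largest fall of the members in controls between 12 somites and 24 hpf, -5.54, but this order depends on the 0.5 CPM added, and others of the 5 fell further in the edgeR fit. At 80% epiboly it had 80.6, 68.5 and 71.6 CPM in atRA embryos and 85.9, 87.5 and 80.6 CPM in controls. At 12 somites it had 55.4, 62.1 and 66.2 CPM with atRA and 84.5, 76.7 and 66.8 CPM in controls. At 24 hpf it had 4.6, 3.54 and 6.1 CPM with atRA, against 0.88, 1.44 and 1.13 CPM in controls. The groups did not overlap at 24 hpf, where both were far below their earlier levels, and d was 1.67. At both earlier stages it was slightly lower with atRA, with d of -0.20 at 80% epiboly and -0.31 at 12 somites. In controls its log2 change from 80% epiboly to 12 somites was -0.479 (SE 0.0722, adjusted p = 3.28e-05, edgeR). With libraries scaled by their totals this change was -0.156 and was not called (adjusted p = 0.0618, edgeR).

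ENSDART00000134607.1 was lower at each later stage in both groups, with exposure begun earlier for the embryos of 80% epiboly. It had the largest called fall of a member in controls from 80% epiboly to 12 somites. Its levels at 80% epiboly were 176, 174 and 177 CPM with atRA and 212, 191 and 189 CPM in controls. At 12 somites they were 66.3, 69.2 and 74.8 CPM with atRA and 73.3, 66.2 and 65 CPM in controls, with overlap between the groups. At 24 hpf they were 44.6, 44.1 and 44.2 CPM with atRA, against 20, 20.8 and 23.9 CPM in controls. The atRA libraries of 24 hpf were almost equal, at 44.3 ± 0.278 CPM, and stood clear of the controls, at 21.6 ± 2.06 CPM (SD, n = 3 each). The log2 change in controls from 80% epiboly to 12 somites was -1.86 (SE 0.0607, adjusted p = 5.59e-12, edgeR).

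ENSDART00000160991.1 had the largest d at 24 hpf, 2.08, among members with a mean of at least 10 counts in both groups. It had 5.12, 4.5 and 3.94 CPM in 24 hpf atRA embryos, against 0.715, 0.67 and 0.687 CPM in 24 hpf controls. At 80% epiboly it had 2.83, 2.62 and 3.12 CPM with atRA and 3.56, 3.41 and 3.57 CPM in controls. At 12 somites it had 3.21, 2.93 and 3.07 CPM with atRA and 2.03, 2.67 and 2.45 CPM in controls. The order of the groups thus differed between these stages, for which exposure also began at different times. The groups did not overlap at any of the 3 stages, with atRA lower at the first and higher at the other two. Controls lost most of the transcript between 12 somites and 24 hpf, a change of -1.28 on the log2(mean CPM + 0.5) scale, while atRA embryos gained 0.492. Before that, its log2 change in controls from 80% epiboly to 12 somites was -0.882 (SE 0.117, adjusted p = 9.47e-06, edgeR). The value of d depends on the pseudocount at this level, and was 2.55 with 0.1 CPM and 1.28 with 2 CPM added.

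ENSDART00000080919.4 had the highest CPM of the members at 24 hpf, with 691, 578 and 762 CPM in atRA embryos against 343, 409 and 225 CPM in controls. At 80% epiboly it had 180, 167 and 182 CPM with atRA and 176, 164 and 180 CPM in controls, and at 12 somites 348, 408 and 390 CPM with atRA and 398, 452 and 405 CPM in controls. The groups overlapped at both earlier stages. At 24 hpf the libraries of both groups were scattered, with means of 677 ± 93 CPM for atRA and 326 ± 93.4 CPM for controls (SD, n = 3 each), and this is the member that edgeR did not call. In controls it rose from 80% epiboly to 12 somites by 0.95 on the log2 scale (SE 0.063, adjusted p = 7.68e-09, edgeR).

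**Figure D3:**
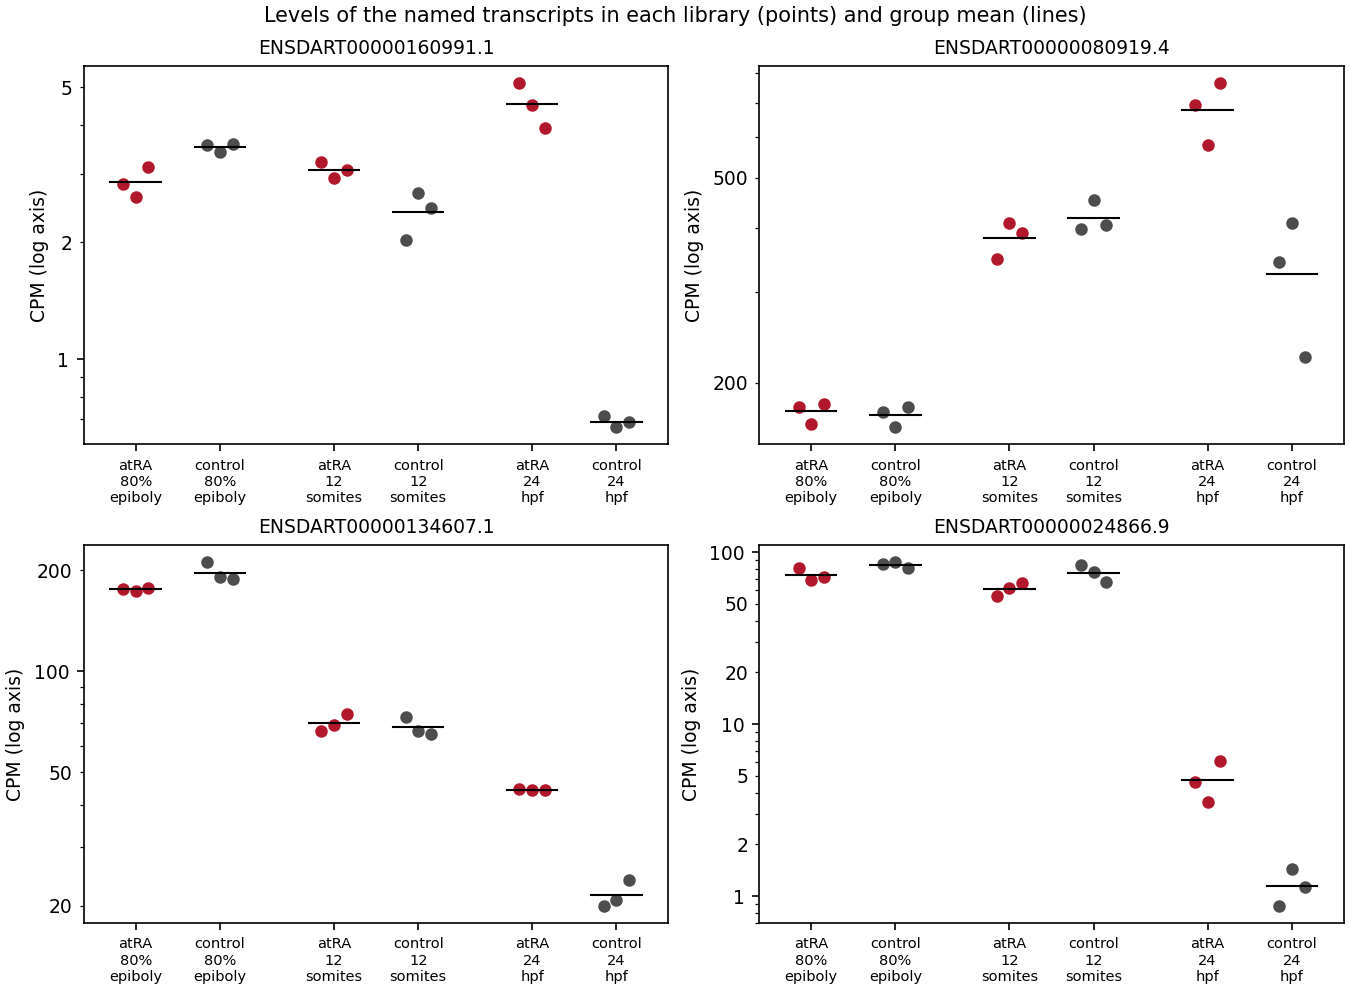
CPM on a log axis of the 4 transcripts named in the text, in each library (points, red for atRA, grey for control) with the group mean (line), at 80% epiboly, 12 somites and 24 hpf. At 24 hpf every atRA point lies above every control point, as the rule requires. The lower panels show the 2 transcripts whose levels fell in both groups.

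The change in control embryos from 80% epiboly to 12 somites uses no 24 hpf library, and the rule does not fix its direction. The step between these stages in atRA embryos has these features too and was not tested. Exposure began at 30% epiboly for the first stage and at 80% epiboly for the second. Stage and exposure therefore cannot be told apart in that step. The DMSO of the controls began at the same times. On the log2(mean CPM + 0.5) scale the step had a median of 0.136 in atRA embryos and 0.173 in controls over the 84 members. Of the 84 members, 70 passed the filter on low counts and 14 did not, all 14 of them low-early. edgeR called 33 higher at 12 somites and 23 lower at an adjusted p under 0.05, and 14 were not called. These are 47.1% and 32.9% of the members tested, beside 44.3% and 39.9% of all 41505 transcripts tested. Without a limit on size, the share that changed in normal development was thus near that of the whole table. The median log2 change was 0.403 over the 70 members and 0.0758 over all transcripts tested. Low-early members had 13 called higher, 4 lower and 6 not called. The other members had 20 called higher, 19 lower and 8 not called, so the lean to rises lay mostly in the low-early members. Among called members the rises had a median of 2.39 and the falls of -0.94 on the log2 scale. Of the 70 members tested, 28 had called rises and 11 had called falls of 1 or more on that scale. Over all transcripts tested, 28.8% and 18.7% had such rises and falls. As shares, such rises were more frequent among the 70 members and such falls less frequent. Some members passed the filter only through the 12 somites libraries, where they were high. ENSDART00000123966.2, for example, had control means of 0 CPM at 80% epiboly and 8.17 CPM at 12 somites. IDs with identical counts were also counted singly, so these shares are a description. With libraries scaled by their totals, the median of all transcripts moved to 0.399 and 41 members were called higher and 20 lower.

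**Figure D4:**
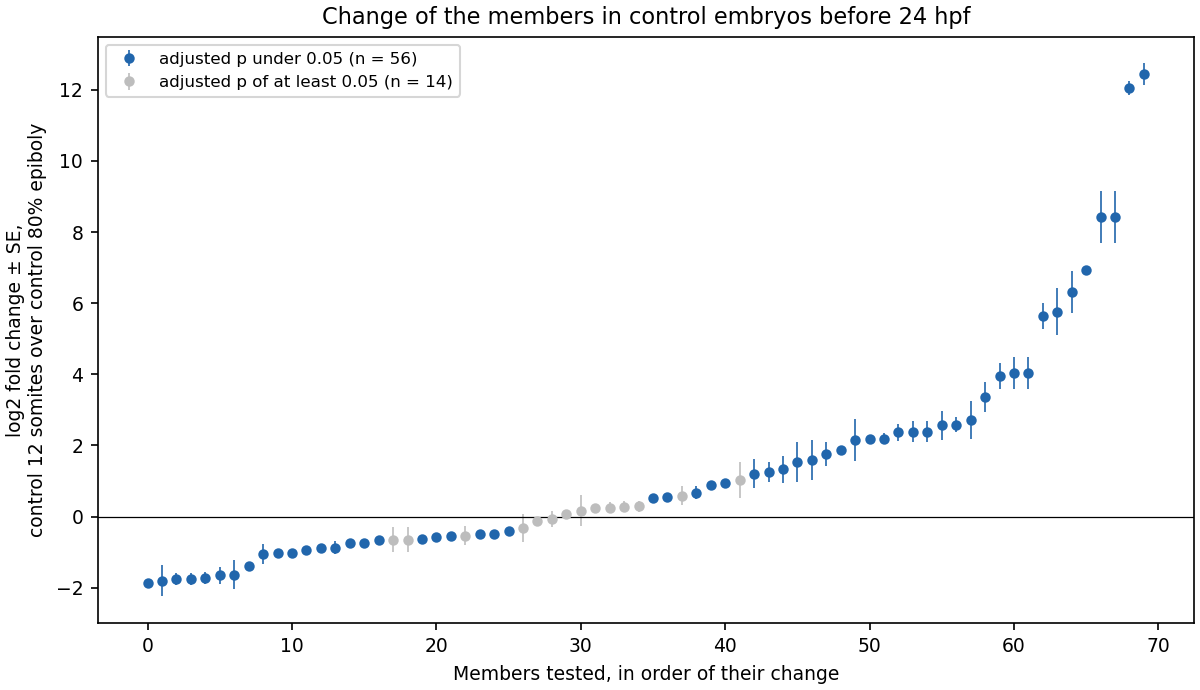
Log2 fold change of the 70 tested members in control embryos, 12 somites over 80% epiboly, with its standard error, ordered by size and coloured by whether the adjusted p was under 0.05. The 33 called rises reach further from 0 than the 23 called falls, whose lowest value is -1.86.

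The label of a response at 24 hpf alone holds for the rule and less so for a count test. At 80% epiboly 49 of the 84 passed the filter. edgeR called 3 of them higher and 14 lower with atRA, or 6.12% and 28.6%. Of all 38203 transcripts tested, 14.1% and 13.7% were called in these directions. At 12 somites 68 passed, and 14 were called higher and 16 lower. These are 20.6% and 23.5% of the 68, beside 17.7% and 18.5% of all 41090. Without 12 somites control replicate 1 the 14 became 9. In all, 38 members were called at 1 or both of the earlier stages, 7 of them lower at both, and 46 at neither. Of the 46, only 15 were tested at both stages, 11 were tested at neither and the rest at 1 stage. Of the 44 members tested at both stages, 29 were called at 1 or both, beside 50.6% of all 36419 transcripts tested at both, and the 7 lower at both compare with 3.11% of them. The rule bounds these differences, so the counts are a description. The 7 lower at both may also hold fewer separate signals. ENSDART00000024866.9 is among the 7, and its counts kept a nearly constant ratio to those of another member. It is 1 of the 5 members, in 2 sets, that had all but vanished from 24 hpf controls. All 5 were slightly lower with atRA at both earlier stages. Their d ran from -0.237 to -0.201 at 80% epiboly and from -0.351 to -0.31 at 12 somites. The 7 are therefore not read as an excess over 3.11%.

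These early differences were small in d because the rule keeps d within 0.5 of 0 at both stages. Called changes of a log2 of 1 or more are limited by it too, except at low levels. Members called at 12 somites had d from -0.493 to -0.159 where lower and from 0.177 to 0.46 where higher. Of the 68 members tested at 12 somites, 3 called rises and 4 called falls came to 1 or more on the log2 scale. Over all transcripts tested, 3.24% and 3.99% had such rises and falls. None of the 7 members had a group mean above 0.456 CPM at 12 somites. Of the 49 members tested at 80% epiboly, 0 had a called fall of 1 or more by edgeR, beside 1.65% of all transcripts. There were 0 also at an unadjusted edgeR p under 0.05 and 0 by DESeq2. A called rise of that size was seen in 1 member, beside 4.22% of all transcripts. Its mean was 0.227 CPM in atRA embryos and 0.0371 CPM in control embryos. Its atRA libraries held 13 to 27 counts and its control libraries 1 to 5, so only the atRA libraries took it past the filter. At 12 somites, too, the filter could admit a member through 1 group alone. At such levels the 0.5 CPM added by the rule hides a ratio that the count test picks up, but low counts fix its size poorly.

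The libraries of both groups did not overlap at 12 somites for 21 members higher with atRA and 28 lower, against 20.5% and 25.6% of the 42160 IDs with at least 180 counts. At 80% epiboly 11 were higher and 11 lower without overlap, against 26.1% and 14%. ENSDART00000024866.9 and ENSDART00000160991.1 are examples of members with a small difference before 24 hpf, and ENSDART00000080919.4 of one with none that was called.

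Membership depended on the settings of the rule. A d of at least 1 without overlap at 24 hpf was found for 289 transcripts, 0.494% of all IDs, of which 205 went over the limit of 0.5 at an earlier stage: 81 at 12 somites alone, 15 at 80% epiboly alone and 109 at both. Only 1 transcript within those limits was kept out by overlap. The member nearest the threshold at 24 hpf had d of 1.01 and the nearest transcript outside it 0.999, and 63 transcripts lay within 0.1 below the threshold. The nearest values inside and outside the limit of 0.5 were 0.484 and 0.516 at 80% epiboly, and 0.493 and 0.516 at 12 somites.

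With library sizes scaled by TMM factors 129 transcripts met the rule, 81 of the 84 among them. With 0.1 CPM added in place of 0.5 it was 161, including 62 of the 84, and with 2 CPM it was 47, including 30. Without 24 hpf control replicate 2 it was 129, including 74 of the 84. The same form of rule was met by 238 transcripts for a rise at 80% epiboly alone and by 125 for a rise at 12 somites alone, and its mirror image by 465 for a fall at 24 hpf alone.

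**Figure D5:**
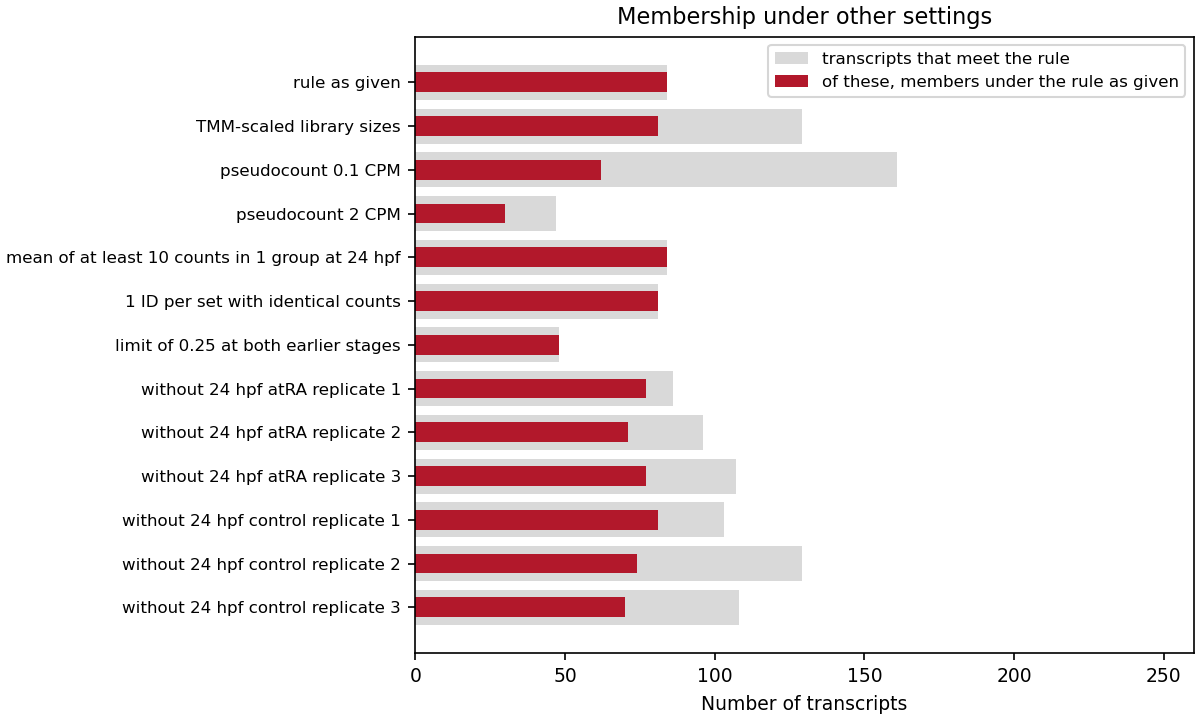
Number of transcripts that met the rule (grey bars) and, of these, the number among the 84 members (red bars), under the rule as given, other settings and without each 24 hpf library in turn. The grey bar is longest, 161, with 0.1 CPM added and shortest, 47, with 2 CPM added.

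The 84 IDs stand for fewer separate signals. Among them 6 IDs had counts identical to those of another member in all 18 libraries, in 3 sets. Of 53 members with at least 20 counts in at least 12 libraries, 22 had a count ratio to another member that was nearly constant, with an SD of its log2 under 0.1 over those libraries, in 9 sets of up to 4. Whether such sets are isoforms of a gene, overlapping genes or copies cannot be read from the files.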

How the data were processed

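RNA was measured by RNA sequencing in 18 libraries of whole embryos. The deposited files hold raw counts per transcript ID, 1 file per library, with 5 summary lines each. The summary lines were left out of totals and tests. They held 16.9 to 18.9% of listed reads as ambiguous, 3.1 to 6.35% outside features and 7.12 to 9.38% as not unique, and the low-quality line repeats the last of these and was counted once. STAR, HTSeq and the build GRCz10 are named in the submitters' processing notes, without versions. Annotation release, strand setting and filters are not given in the sources used here. Groups were taken from the titles.

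CPM was computed over the sum of all transcript rows. Tests used edgeR 4.0.16 in R 4.3.3 on the counts: filterByExpr, TMM factors, glmQLFit and glmQLFTest on the 6 libraries of each comparison, with Benjamini-Hochberg adjustment over all transcripts tested and a threshold of 0.05. Only member rows are described. The standard error of a log2 fold change is its size over the root of the F statistic. The fits were also run on simulated counts with known changes, and the outcome of that run is not used here. DESeq2 1.42.0 was an alternative.

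Members and gene lists were chosen with earlier results of these data known. The 4 IDs named are, with no gene names at hand, the member with the largest d at 24 hpf (mean of at least 10 counts in both groups), that with the highest atRA CPM, and those with the largest falls in controls over each step, the first of them called. The 2 gene lists, with 52 genes, matched 0 IDs. Calls at the earlier stages and the classes of change were added after the data were seen. The near-identical sets and the split at 0.5 CPM were too. Counting floors and intervals cover counting error only.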

Additional observations from a re-analysis of the deposited data

Results flagged for a closer look

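Reads listed as ambiguous in the summary lines lie outside the transcript counts, and showed a difference between groups in data no comparison used. At 24 hpf they made up 17.9% of all reads listed in a file in atRA libraries (17.9 to 18%) and 17% in controls (16.9 to 17.1%), without overlap between the groups of 3. At the earlier stages the shares were 18.7% with atRA and 18.8% in controls at 80% epiboly, and 18.3% with atRA and 18.4% in controls at 12 somites. The ambiguous shares did not overlap at 12 somites either, where those with atRA were the lower ones. At 24 hpf reads outside features made up 4.13% with atRA and 5.86% in controls, and reads not aligned uniquely 7.84% with atRA and 9.18% in controls, again without overlap. The part of these shares in the levels of the 84 members was not tested.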

How the results depend on the processing

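The 84 members became 129 with TMM-scaled library sizes, 161 with 0.1 CPM and 47 with 2 CPM added, and 48 with a limit of 0.25 at both earlier stages, and leaving out each 24 hpf library gave 86 to 129. At 24 hpf 83 members were called, 39 to 84 without 1 library, and 4 with the replicate number as a block. The labels give no pairing, and at 24 hpf the correlation between an atRA library's departure from its group mean and that of its namesake control was 0.127, -0.611 and -0.657, and no library correlated best with its own number (atRA replicate 2 with control replicate 3 gave 0.616, atRA replicate 3 with control replicate 2 gave 0.663). The block moved no other count by over 1.5 times. Without 1 library, controls from 80% epiboly to 12 somites gave 31 to 35 higher and 22 to 25 lower, controls from 12 somites to 24 hpf 40 to 46 higher and 12 to 25 lower, atRA embryos over that step 73 to 74 higher and 8 lower each time, atRA at 80% epiboly 2 to 4 higher and 10 to 14 lower, and atRA at 12 somites 9 to 15 higher and 15 to 17 lower. Asking also for a log2 change of 1 or more in size, stricter by construction, left 11 falls in controls to 12 somites, 10 from there to 24 hpf and 5 in atRA embryos. At 80% epiboly it left 1 rise and 0 falls with edgeR, with 0 at an unadjusted p under 0.05 and 0 by DESeq2, and at 12 somites 3 rises and 4 falls. DESeq2 size factors, library totals, no filter and the DESeq2 test kept the other counts within 1.5 times. Of 80 values of the named transcripts under alternatives, 76 kept direction and size or call, 3 values of d moved with the pseudocount, and 1 call was lost with library totals. The cause of the changes under single libraries was not tested. Depth limits members under about 10 counts per library.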
